A study of Mus musculus with 2 samples.

Results

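The 8 complement genes C3, C4b, C1s1, C1ra, C2, C7, Cfb and Serping1 were followed across the cells of the mouse intestinal lamina propria, as 8 of the 31053 genes counted. They were taken by name, in every droplet barcode with at least 3000 unique molecular identifiers (UMIs, tags that count single RNA molecules) and at most 20% mitochondrial UMIs. Live cells without the red cell protein Ter119, the epithelial protein EpCAM and the leukocyte protein CD45 were sorted from C57BL/6 mice of 11 weeks and profiled by droplet 3′ single-cell RNA sequencing. The ApcMin library came from ApcMin/+;Lef1 +/+ mice and the VApcMinL library from ApcMin/+;Lef1 fl/fl; Villin-Cre mice, so the ApcMin/+ allele, which causes intestinal adenomas, was carried in both. Villin-Cre is active in the intestinal epithelium, so the Lef1 deletion was directed at the epithelium and not at the stromal cells studied here, and the ApcMin mice carried no Cre. How many mice went into each library is not given in the sources used here. With 1 library per genotype there was no replicate error and no test between genotypes, and every 95% interval given here covers counting error only.

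Complement is a cascade of plasma and tissue proteins that marks and lyses microbes and damaged cells. In the classical pathway, the proteases encoded by C1ra and C1s1 sit in the C1 complex and cleave C4 and C2, whose fragments form an enzyme that splits C3. In the alternative pathway factor B, encoded by Cfb, forms the corresponding enzyme with C3 itself, C7 is a component of the terminal complex that inserts into membranes, and Serping1 encodes the C1 inhibitor, which blocks C1r and C1s. The liver makes most complement of the blood, and fibroblasts, mesothelium and macrophages make part of it within tissues.

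The ApcMin library held 93203061 UMIs and the VApcMinL library 101609269. After doublets were left out, 6251 and 6224 cells remained, with medians of 10709 and 8932 UMIs per cell, and 17 barcodes occurred in both libraries. Clusters were found without using any complement gene and were named by marker genes. Fibroblast-like cells made up 3189 ApcMin and 3543 VApcMinL cells (51.0% and 56.9%), and all 8 fibroblast markers were detected in both libraries at summed levels of 35853 and 33428 CPM (UMIs of a gene per 1e6 UMIs of the class). They fell into the Pi16 adventitial-type subset (1108 and 724 cells), the Lpl Penk Plau subset (880 and 708), the Grem1 Ackr4 trophocyte-type subset (546 and 706), the subepithelial Pdgfra-high subset (54 and 188), the Scg2 Chodl Fibin subset (139 and 113) and 3 clusters with Adamdec1 among their 10 leading genes (462 and 1104). The last are called Adamdec1-led, since too few of their listed markers were detected for a subset name. Inflammatory genes (Il6, Ccl2, Ptgs2) led 1 of the Lpl Penk Plau clusters, Cfd and the fat cell gene Car3 stood among the leading genes of 1 Pi16 cluster, and mast cell genes (Mcpt1, Mcpt2) led the myeloid cluster. Despite the sort, leukocytes, epithelial and erythroid cells were present, and 442 and 83 cells of a cluster led by pancreatic enzyme genes stayed unnamed. Lef1, the gene targeted in VApcMinL, had 22 of 2315965 UMIs in the 38 ApcMin epithelial cells and 29 of 13407139 UMIs in the 307 VApcMinL ones, and since 3′ tags can lie outside a deleted exon these counts do not check the deletion.

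On the GRCm38 build, with GENCODE vM21 annotation, C4b (17:34728380-34743882), Cfb (17:34856374-34862518) and C2 (17:34862604-34898265) lie near each other on the minus strand of chromosome 17, which also carries C3 (17:57203970-57228136, minus strand). C1ra (6:124512405-124523443, plus strand) and C1s1 (6:124530345-124542359, minus strand) are neighbours on chromosome 6. C7 (15:4988762-5063740) and Serping1 (2:84765387-84775444) lie on the minus strands of chromosomes 15 and 2. The annotated gene Gm20547 runs through Cfb and C2 on the same strand and covers 79.5% of the exonic bases of Cfb and 42.8% of those of C2, while it had 0 UMIs in all kept cells of both libraries. The antisense gene Gm16567 covers 18.4% of the exonic bases of C1s1. Reads in exons shared on a strand cannot be assigned to 1 gene, so the counts of Cfb and C2 can fall short of their transcripts. C1ra and C1s1 have the near-identical copies C1rb and C1s2, which had 12 and 34 UMIs in the ApcMin fibroblast-like cells, and C4b has the copy C4a, which was not used here, so reads shared with the copies are uncertain.

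All 8 members were looked up in the RefSeq table for GRCm38.p6, and 4 (C3, C1s1, C1ra and C7) had an entry there. The 250 bases before their start, as that table places it, are shown. C4b, C2, Cfb and Serping1 had no entry. Letters are 5′ to 3′ on the strand of the gene, and capitals mark matches, on either strand, to the STAT-type motif TTCNNNGAA, the interferon response core (GAAA, any 2 bases, GAAA), the C/EBP-type motif TTGCNNAA or the TATA-type motif TATAAA. The regions are chr17:57228137-57228386 (minus strand) for C3, chr6:124542360-124542609 (minus strand) for C1s1, chr6:124512371-124512620 (plus strand) for C1ra and chr15:5063774-5064023 (minus strand) for C7. The RefSeq start of C1ra lies inside the GENCODE gene, which covers 216 of the 250 bases shown, so for C1ra they are mostly not upstream of the GENCODE start.
C3: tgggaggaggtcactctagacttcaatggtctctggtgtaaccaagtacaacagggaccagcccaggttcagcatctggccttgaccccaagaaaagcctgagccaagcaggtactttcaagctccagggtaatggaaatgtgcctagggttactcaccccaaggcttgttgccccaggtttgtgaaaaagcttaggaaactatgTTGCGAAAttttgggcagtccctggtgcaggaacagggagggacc
C1s1: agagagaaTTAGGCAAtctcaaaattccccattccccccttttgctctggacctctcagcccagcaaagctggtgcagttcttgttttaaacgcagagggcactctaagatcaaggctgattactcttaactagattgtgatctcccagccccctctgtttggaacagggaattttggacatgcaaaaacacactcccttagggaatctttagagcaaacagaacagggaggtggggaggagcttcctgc
C1ra: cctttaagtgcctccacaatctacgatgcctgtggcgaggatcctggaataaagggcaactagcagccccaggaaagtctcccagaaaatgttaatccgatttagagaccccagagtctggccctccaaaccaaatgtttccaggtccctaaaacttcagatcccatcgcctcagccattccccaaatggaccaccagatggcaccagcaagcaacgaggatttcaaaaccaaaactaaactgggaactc
C7: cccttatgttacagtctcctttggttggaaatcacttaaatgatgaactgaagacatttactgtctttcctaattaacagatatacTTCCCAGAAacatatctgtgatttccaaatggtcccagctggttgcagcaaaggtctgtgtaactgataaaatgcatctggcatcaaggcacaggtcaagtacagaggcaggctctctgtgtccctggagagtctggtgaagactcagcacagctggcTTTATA
The C3 region held a C/EBP-type match, TTGCGAAA, from 45 to 38 bases before the start, and C1s1 held a C/EBP-type match on the opposite strand, from 242 to 235 bases before it. The table gives C1s1 a second start, whose region (chr6:124542322-124542571) held no match. C7 held a STAT-type match, TTCCCAGAA, from 164 to 156 bases before its start and a TATA-type match on the opposite strand in the last 6 bases, while C1ra held none of the 4 motifs. Of the 32851 regions of the same length in the table, 9.56% held the C/EBP-type, 7.02% the STAT-type, 12.4% the TATA-type and 2.98% the interferon motif, so these matches describe letters and no binding.

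Most UMIs of the complement genes came from fibroblast-like cells. In ApcMin, fibroblast-like cells held between 86.9% (C2) and 99.8% (C7) of the UMIs that each member had in all kept cells. In VApcMinL they held between 67.9% (Cfb) and 99.2% (C7). Of the UMIs of all genes, fibroblast-like cells held 43929865 of 72100351 in ApcMin and 39342739 of 69813517 in VApcMinL. Mesothelial cells, which line the peritoneal surface, were few (7 and 35 cells) yet gave the highest level of C3, C2, Cfb and C1ra among all named classes by the mean of the libraries, although their C1ra intervals (514 to 714 and 601 to 735 CPM) held those of the Grem1 Ackr4 subset and C1ra was highest in that subset after thinning to 3000 UMIs. The other 4 members were highest in a fibroblast-like subset. C4b and Serping1 were highest in the Grem1 Ackr4 subset in both libraries, C4b in the Adamdec1-led subset when cells were classed singly by their marker UMIs. C7 was highest in the Grem1 Ackr4 subset in ApcMin and in the Pi16 subset in VApcMinL, and C1s1 in the Lpl Penk Plau subset in ApcMin and in the Pi16 subset in VApcMinL. Classes under 50 cells in either library were the mesothelial, glial or neuronal, lymphatic endothelial, epithelial and smooth muscle cells. With these left out, all 8 were highest in a fibroblast-like subset. The share of all genes that were highest in such a subset was not counted. B and plasma cells, which should lack these transcripts, stayed at or under 32.9 CPM for every member, and empty droplets of the same libraries, those ranked from 45000 to 90000 by UMIs, had 451 and 595 CPM of C3, so free RNA of these genes was present.

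**Figure D1:**
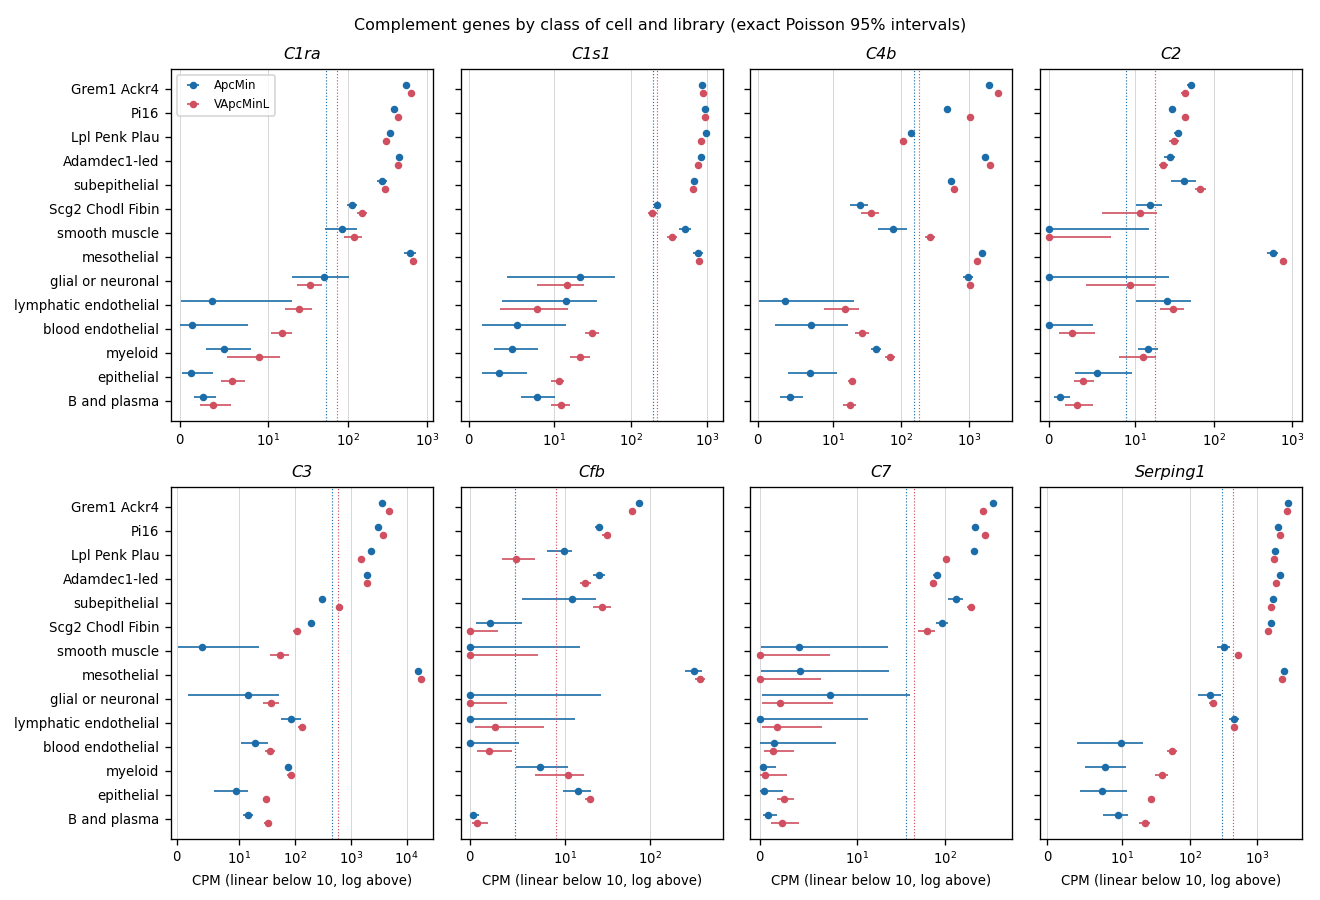
Level of each complement gene (CPM, linear below 10 and logarithmic above) by class of cell in ApcMin (blue) and VApcMinL (red), with exact Poisson 95% intervals, with dotted lines at the level of empty droplets. Serping1 was at or above 1416 CPM in all 6 fibroblast-like subsets, whereas C4b ran from 24.4 to 2637 CPM among them.

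**Figure D2:**
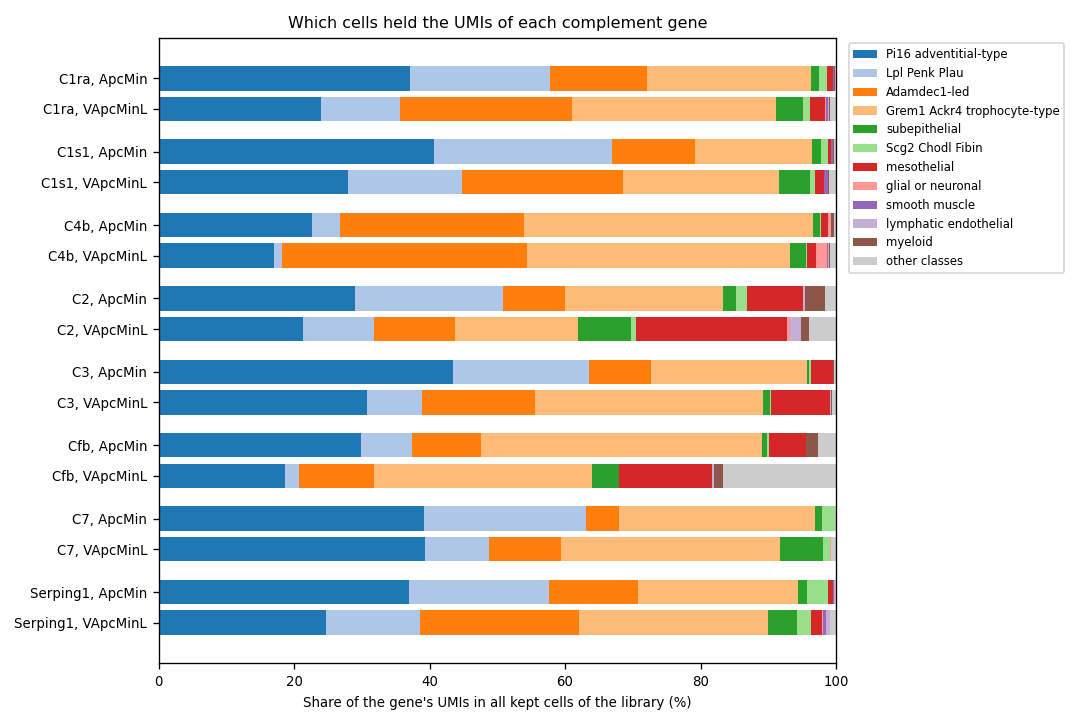
Share of each gene's UMIs (%) held by each class of cell, 1 bar per gene and library. The 6 fibroblast-like subsets held from 67.9% to 99.8%, and mesothelial cells stood out for C2, C3 and Cfb.

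C1ra, the protease that activates C1s, was broad among fibroblasts. Its level was 546 and 620 CPM (ApcMin and VApcMinL, in this order here and below) in the Grem1 Ackr4 subset, 442 and 426 CPM in the Adamdec1-led subset and 387 and 429 CPM in the Pi16 subset. It was 342 and 307 CPM in the Lpl Penk Plau subset, 269 and 297 CPM in the subepithelial subset and 114 and 150 CPM in the Scg2 Chodl Fibin subset. The intervals of neighbours in this order did not overlap in ApcMin, whereas in VApcMinL the Adamdec1-led and Pi16 subsets overlapped, as did the Lpl Penk Plau and subepithelial subsets. Mesothelial cells had 608 and 666 CPM, and smooth muscle cells 84.5 and 119 CPM. In myeloid cells it was 5.04 and 8.96 CPM, below the empty droplets (53.1 and 73.3 CPM).

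C1s1, which cleaves C4 and C2, was the member with the flattest profile among the 4 largest fibroblast subsets in ApcMin, from 841 to 971 CPM. In VApcMinL the same subsets ran from 750 to 941 CPM. The subepithelial subset had 662 and 657 CPM, and the Scg2 Chodl Fibin subset was far lower with 219 and 192 CPM. C1s1 was the member for which smooth muscle cells came closest to fibroblasts. They had 515 CPM (95% interval 430 to 612) and 343 CPM (294 to 397), and at 3000 UMIs per cell 77.5% and 63.6% of them had a C1s1 UMI, against 2.36% and 3.09% of B and plasma cells. Without thinning, 36 of 40 and 50 of 66 smooth muscle cells had a C1s1 UMI against 5.26% and 4.46% of B and plasma cells, at median depths of 5408.5 and 6117.5 UMIs in smooth muscle and 5414 and 4727 UMIs in B and plasma cells.

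C4b, the substrate of C1s whose larger fragment binds to surfaces, differed widely between the fibroblast subsets. It was 1942 and 2637 CPM in the Grem1 Ackr4 subset and 1692 and 2004 CPM in the Adamdec1-led subset. The subepithelial subset had 545 and 596 CPM and the Pi16 subset 476 and 1007 CPM, so their order was not the same in the 2 libraries. The Lpl Penk Plau subset had 141 and 106 CPM and the Scg2 Chodl Fibin subset 24.4 and 35.5 CPM, below the empty droplets (153 and 183 CPM). Free RNA, estimated from immunoglobulin UMIs, made up 2.43% and 4.26% of the Lpl Penk Plau UMIs and 9.26% and 4.54% of the Scg2 Chodl Fibin UMIs. That estimate takes immunoglobulin UMIs outside B and plasma cells as free RNA, and for myeloid cells it was 11.8% and 56.0%. The part of free RNA in the C4b of both subsets was not tested. At 3000 UMIs per cell, a C4b UMI was found in 93.4% and 92.8% of Grem1 Ackr4 cells and in 22.4% and 14.4% of Lpl Penk Plau cells. Without thinning the shares were 98.0% and 97.9% against 45.6% and 33.2%. Of B and plasma cells, 1.63% and 2.97% had a C4b UMI after thinning and 2.90% and 5.94% before it.

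In cells named from glial or neuronal markers (glia below), C4b lay above the subepithelial subset and below the Adamdec1-led subset in both libraries. It was level with the Pi16 subset in VApcMinL alone. It was 961 CPM (95% interval 805 to 1138) from 23 ApcMin cells and 1007 CPM (944 to 1072) from 159 VApcMinL cells. After thinning, 95.7% and 88.1% of glia had a C4b UMI. Smooth muscle cells had 76.4 and 265 CPM and myeloid cells 42.1 and 68.7 CPM, above the Scg2 Chodl Fibin subset and, apart from smooth muscle in VApcMinL, below the empty droplets. Of the other members, C3 was 14.3 and 37.5 CPM in glia and C1s1 21.5 and 14.6 CPM, while Serping1 was 201 and 219 CPM.

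C2, the second substrate of C1s, was low in fibroblasts, 33.7 and 36.0 CPM in all of them, with the possible shortfall from Gm20547 described above. Among the subsets it ran from 15.4 to 50.7 CPM in ApcMin and from 11.3 to 67.7 CPM in VApcMinL, lowest in both in the Scg2 Chodl Fibin subset. Mesothelial cells stood far above, with 571 CPM (95% interval 481 to 674) and 766 CPM (697 to 841). Lymphatic endothelial cells had 25.2 and 30.05 CPM, on 7 and 34 UMIs, and myeloid cells 14.5 and 12.4 CPM, where empty droplets had 8.85 and 17.8 CPM. Both were above the B and plasma cells (1.33 and 3.21 CPM), while blood endothelial cells had 0 UMIs in ApcMin, which allows up to 4.19 CPM, and 2.71 CPM in VApcMinL.

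C3, the point at which the pathways meet, was 2685 and 2825 CPM in fibroblast-like cells. The Grem1 Ackr4 subset had 3597 and 4799 CPM, the Pi16 subset 3131 and 3818 CPM and the Lpl Penk Plau subset 2308 and 1495 CPM. The Adamdec1-led subset had 1944 and 1947 CPM, and the subepithelial and Scg2 Chodl Fibin subsets had 305 and 607 CPM and 193 and 111 CPM. The last 2 were near or below the empty droplets, and 10 cells held 93.1% and 88.3% of the C3 UMIs of the Scg2 Chodl Fibin subset. At 3000 UMIs, 98.9% and 98.4% of Grem1 Ackr4 cells had a C3 UMI against 7.19% and 13.3% of Scg2 Chodl Fibin cells and 3.63% and 7.54% of B and plasma cells. Without thinning the Scg2 Chodl Fibin share was 25.2% and 23.0%.

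Mesothelial cells had C3 at 16210 CPM (95% interval 15709 to 16722) and 18086 CPM (17743 to 18434), several times the level of any fibroblast subset. The 7 and 35 mesothelial cells held 3.24% and 8.62% of all C3 UMIs. Lymphatic endothelial cells had 86.3 and 136 CPM, myeloid cells 75.3 and 85.1 CPM and blood endothelial cells 19.5 and 35.9 CPM, the last close to B and plasma cells (14.5 and 32.9 CPM).

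Cfb, the protease of the alternative pathway, was 29.0 and 28.2 CPM in fibroblast-like cells. It was 74.8 and 61.1 CPM in the Grem1 Ackr4 subset and 24.9 and 30.9 CPM in the Pi16 subset. The Adamdec1-led subset had 25.2 and 17.3 CPM, the Lpl Penk Plau subset 9.95 and 4.89 CPM, and the Scg2 Chodl Fibin subset 4 UMIs in ApcMin and 0 in VApcMinL, which allows up to 2.42 CPM. Cfb was thus concentrated in the Grem1 Ackr4 subset, which held 41.6% and 32.1% of its UMIs. Mesothelial cells again had the highest level, 322 CPM (95% interval 255 to 402) and 386 CPM (337 to 440). Epithelial cells had 14.2 and 19.5 CPM. That was above empty droplets (4.70 and 9.11 CPM) and B and plasma cells (0.267 and 0.756 CPM), the other 7 members being below the empty droplets in epithelial cells. A Cfb UMI was found in 52.6% and 58.3% of epithelial cells, at median depths of 44916.5 and 41933 UMIs, and after thinning in 2.63% and 7.82%, against 0.181% and 0.229% of B and plasma cells before thinning and 0% and 0.229% after it.

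C7, a component of the membrane attack complex, was the most restricted to fibroblasts of the 8 by share of UMIs. It was 352 and 273 CPM in the Grem1 Ackr4 subset, 220 and 289 CPM in the Pi16 subset and 213 and 102 CPM in the Lpl Penk Plau subset. The subepithelial subset had 133 and 198 CPM, the Scg2 Chodl Fibin subset 92.7 and 62.1 CPM and the Adamdec1-led subset 80.9 and 73.5 CPM, so the Adamdec1-led subset, high for C4b, was low for C7. Mesothelial cells, highest for C3, C2 and Cfb, had 1 C7 UMI in ApcMin and 0 in VApcMinL, where 0 UMIs allow up to 5.12 CPM. Every other named class outside fibroblasts was at or below 7.17 CPM, on at most 33 UMIs.

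Serping1, the inhibitor of C1r and C1s, was the most even of the members across fibroblasts. It was 2819 and 2779 CPM in the Grem1 Ackr4 subset and lowest in the Scg2 Chodl Fibin subset, with 1582 and 1416 CPM. All 6 subsets lay within 2-fold of each other in each library. After thinning, between 92.8% and 99.3% of the cells of each ApcMin subset had a Serping1 UMI, and between 91.2% and 99.6% in VApcMinL. Thus the Scg2 Chodl Fibin cells, which had little C3, C4b or Cfb, did have the inhibitor. Mesothelial cells had 2514 and 2318 CPM, lymphatic endothelial cells 449 and 447 CPM, smooth muscle cells 318 and 522 CPM and glia 201 and 219 CPM. Blood endothelial cells had 9.77 and 54.6 CPM, so within the endothelium Serping1 was higher in lymphatic cells. Empty droplets had 301 and 442 CPM of Serping1.

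Single cells carried several members at once. At 3000 UMIs per cell, the median number of members detected was 5 of 8 in Grem1 Ackr4 cells of both libraries and 4 and 5 in Pi16 cells, and at least 4 members were found in 97.6% and 95.6% of Grem1 Ackr4 cells. Lpl Penk Plau cells had a median of 4 in both libraries, subepithelial cells 3 and Scg2 Chodl Fibin cells 2. Mesothelial cells had 6. Blood endothelial, myeloid, epithelial, B and plasma cells had a median of 0 and smooth muscle and glia 2, which for smooth muscle were mostly C1s1 and Serping1 and for glia C4b and Serping1. No member was detected in 88.8% and 82.7% of B and plasma cells.

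Within the Adamdec1-led and subepithelial subsets the clusters differed for C3. The Adamdec1-led cluster with Mmp10 and Fgfr2 as leading genes (99 ApcMin cells) had C3 at 310 and 199 CPM, whereas the largest Adamdec1-led cluster (322 ApcMin cells) had 2393 and 2800 CPM. C4b was 707 and 676 CPM in the former and 1931 and 2635 CPM in the latter. C1s1 differed less, with 721 and 623 CPM against 875 and 823 CPM. In both libraries 7 of the 8 members were lower in the former, and C2 was higher. For Cfb in VApcMinL the intervals of these clusters overlapped. The share of all genes that were lower in the former was not counted, so the count of members is not specific to complement genes. Among subepithelial cells, the cluster led by Wif1 and Itgbl1 had C3 at 588 and 840 CPM and the cluster led by Bmp5 and Bmp7 at 21.5 and 99.4 CPM.

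**Figure D3:**
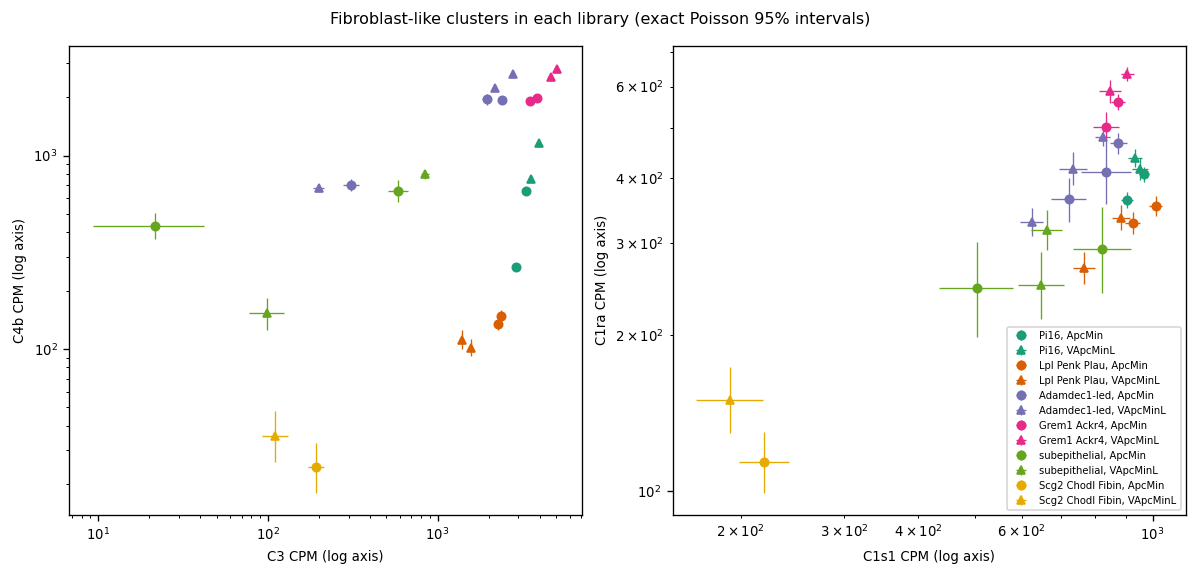
C4b against C3 (left) and C1ra against C1s1 (right) in CPM on log axes, 1 point per fibroblast-like cluster and library (circles ApcMin, triangles VApcMinL), with exact Poisson 95% intervals. C3 and C4b set clusters apart, such as Lpl Penk Plau (high C3, low C4b), while C1ra and C1s1 lay in a narrower range in every subset but Scg2 Chodl Fibin.

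Across the 28 profiles of a class in a library with at least 50 cells, on log2(CPM + 10), C1ra correlated with C1s1 at Pearson r = 0.98 and with Serping1 at r = 0.98, and the weakest pair was Cfb and Serping1 at r = 0.64. These values include the contrast of fibroblasts with other cells. Profiles of a library also share its free RNA and are not independent, so no p-value is given. The genes outside the list most like each member, among 11211 genes, were Col14a1, Clec3b and Dapk1 for C3 (r = 0.97 to 0.94), Ephb3 and Egflam for C4b (r = 0.95 and 0.92) and Cygb, Dcn and Mmp23 for C1s1 (r = 0.99 to 0.98). They were Igsf10, Col3a1 and Nupr1 for C1ra (r = 0.99 to 0.98), Clec3b, Cpxm1 and Mrc2 for C7 (r = 0.96 to 0.95) and Aebp1, Rbms3 and Rcn3 for Serping1 (r = 0.98). For C2 they were Pdpn and Naglu (r = 0.91), and for Cfb Ptgfr, Lif and Col14a1 (r = 0.87 to 0.85).

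Whether the members differed between the genotypes was asked in fibroblast-like cells, where they had most of their UMIs. C4b was higher in VApcMinL, at 1421 against 799 CPM, a ratio of 1.78 (95% interval 1.75 to 1.80, log2 0.83). C7 was lower, at 183 against 217 CPM (log2 -0.24), and C1s1 slightly lower (log2 -0.11). C3 (log2 0.07) and C1ra (log2 0.12) were slightly higher, and the intervals of C2, Cfb and Serping1 held a ratio of 1. None of the 8 reached 2-fold, as 3.34% of all 11661 genes with at least 200 UMIs in these cells, both libraries together, did. The median log2 ratio of the members was 0.03 and that of all these genes -0.000492. An interval free of 1 was common, since it covers counting error alone. It lay above 1 for 3 of the members and for 30.1% of the genes, and below 1 for 2 members and for 29.6%.

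Several properties of the libraries differed beside these ratios. Fibroblast-like cells had median depths of 13303 and 10557 UMIs, and the summed level of the 7 erythroid markers in them was 16222 and 2724 CPM. Barx1, a transcription factor of stomach mesenchyme, was 38.7 and 2.19 CPM, and 81.0 and 3.56 CPM in the Lpl Penk Plau subset. Adamdec1-led cells were 7.39% and 17.7% of all kept cells and Pi16 cells 17.7% and 11.6%. With each subset given the same share in both libraries, an alternative chosen after seeing the data, the log2 ratio of C4b was 0.48 in place of 0.83. The part of depth, erythroid RNA and region of the gut in the ratios was not tested, and with 1 library per genotype they cannot be told apart from genotype.

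The subsets did not move together. In the Pi16 subset 7 of the 8 members were higher in VApcMinL with an interval above 1, as were 18.0% of all genes, and none was lower, where 27.3% were. The median log2 ratio was 0.30 for the members and -0.05 for all genes. C4b was 1007 against 476 CPM there (log2 1.08, ratio interval 2.05 to 2.18), the 1 member past 2-fold, where 2.02% of all genes were. C2 (log2 0.58), C7 (0.40), Cfb (0.31) and C3 (0.29) were also higher, and C1s1 was level at 939 and 941 CPM. C4b was higher in both clusters of the subset, at 656 and 1168 CPM in 1 and 264 and 754 CPM in the other. Without the 2 and 6 Pi16 cells that had a UMI of the fat cell gene Adipoq, the C4b log2 ratio was 1.09. The summed level of the 9 blood endothelial markers in Pi16 cells was 22.6 and 296 CPM, none of them at 0, and that of the 7 erythroid markers 17280 and 2397 CPM. Their part in the result was not tested.

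In the Lpl Penk Plau subset the members that differed were lower. Of 7 members with at least 200 UMIs, 6 were lower in VApcMinL, as were 20.9% of all genes, and the interval of C2 held 1, with a median log2 ratio of -0.22 against -0.02 for all genes. C7 was lower by a log2 ratio of -1.06, the 1 member past 2-fold, where 1.22% of all genes were, and C3 by -0.63, at 1495 against 2308 CPM. C3 was lower in both clusters of the subset, at 2260.0 and 1575 CPM in 1 and 2362 and 1392 CPM in the other. These subset values depended on where the Pi16 and Lpl Penk Plau subsets were divided. With doublets kept, 1105 of the 1832 Pi16 cells were named Lpl Penk Plau, and the log2 ratios of that subset became 0.08 for C3 and -0.13 for C7, with 5 of 8 members higher, where 17.1% of all genes were in the clusters used here. When cells were instead classed singly, by their marker UMIs, they were -0.15 and -0.26, with 2 members higher and 3 lower. In Pi16 cells 3 of 7 members were higher and 1 lower with doublets kept, where C2 was -0.14 and Cfb -0.22. With cells classed singly, 5 of 8 were higher there and none lower. In the clusters used here, 18.0% of all genes were higher and 27.3% lower in Pi16 cells, and 17.1% and 20.9% in Lpl Penk Plau cells. These shares were not computed with doublets kept or with cells classed singly. C4b in Pi16 cells stayed higher in both settings (log2 0.86 and 0.94).

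In the Grem1 Ackr4 subset C3 (log2 0.42), C4b (0.44) and C1ra (0.18) were higher in VApcMinL and C7 (-0.36), Cfb (-0.29) and C2 (-0.25) lower, where 15.2% and 24.8% of all genes were higher and lower, with no member past 2-fold, where 0.794% of all genes were. In the Adamdec1-led subset C4b was higher (log2 0.24), Cfb (-0.54), C1s1 (-0.16) and Serping1 (-0.16) were lower, where 20.1% and 19.7% of all genes were, and none was past 2-fold, where 1.71% of all genes were. The subepithelial subset had no member past 2-fold among the 6 with enough UMIs, where 6.81% of all genes were. C3 and C7 (log2 0.58) were higher there and none lower, against 21.1% and 20.8% of all genes. Its C3 ratio (log2 0.99) rested on 54 ApcMin cells, of which 10 held 95.2% of the UMIs, and its C7 was lower in the Wif1-led cluster (195 and 138 CPM) and higher in the Bmp5-led cluster (69.8 and 328 CPM). At a Louvain resolution of 0.2, which left 29 and 70 subepithelial cells, the log2 ratios were 2.22 for C3, 2.30 for C7 and -1.54 for C4b, and with cells classed singly C3 was -0.17. In the Scg2 Chodl Fibin subset C3 was lower (log2 -0.80), as were C7 (-0.58) and Serping1 (-0.16), and C1ra (0.40) was higher, against 20.0% of all genes lower and 16.9% higher. None of 5 was past 2-fold, where 2.99% of all genes were. The C3 direction depended on how cells were grouped, with log2 ratios of -0.10 with doublets kept, 0.60 at a resolution of 0.2 and 1.76 with cells classed singly. C4b was higher in 3 subsets and lower in 1 in the clusters used here, and Serping1 differed by no more than 0.16 on the log2 scale in any subset of these clusters. In subepithelial cells Serping1 was -0.94 at a resolution of 0.2 and 0.23 with cells classed singly, with 1639 and 848 CPM in the Bmp5-led cluster and 1725 and 1951 CPM in the Wif1-led cluster.

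**Figure D4:**
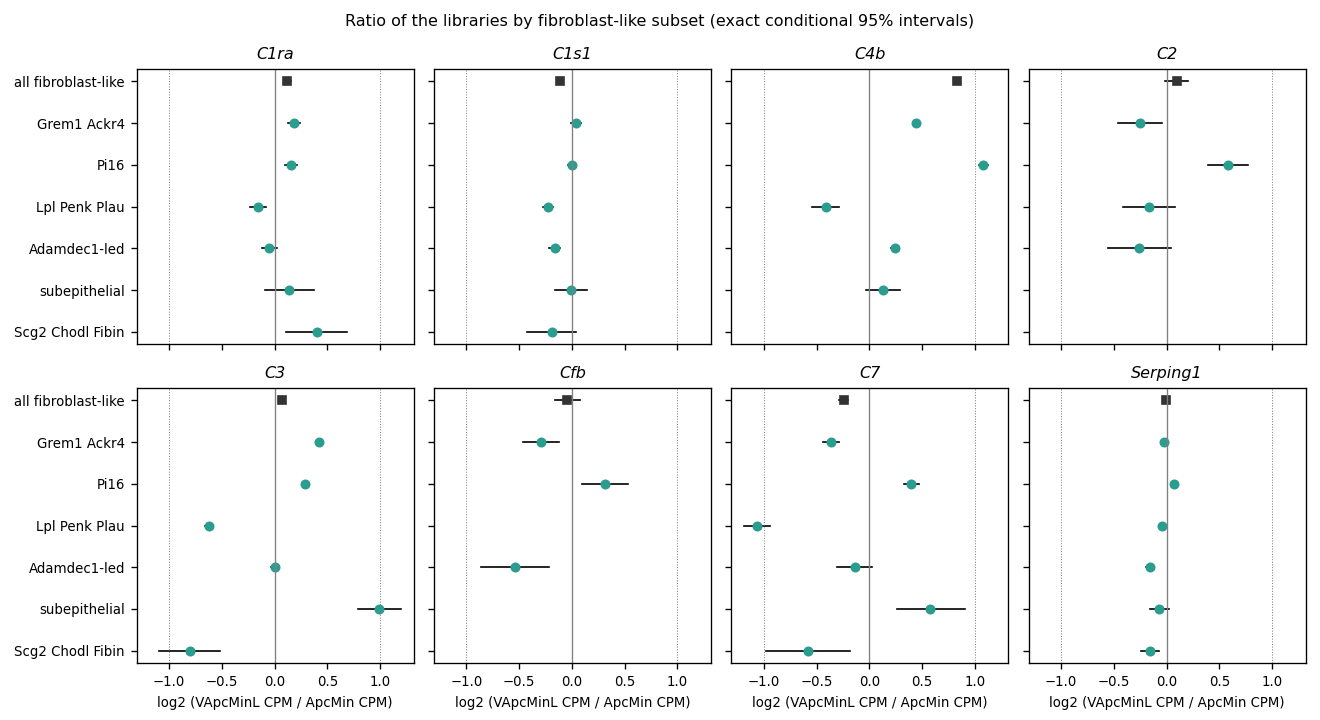
Log2 ratio of VApcMinL over ApcMin CPM for each complement gene in all fibroblast-like cells (squares) and each subset (circles), with exact conditional 95% intervals with dotted lines at 2-fold, for genes with at least 200 UMIs. C4b was past 2-fold in Pi16 cells (log2 1.08) and C7 in Lpl Penk Plau cells (log2 -1.06), while Serping1 lay within 0.16 of 0 in the clusters used here, though not in subepithelial cells at a resolution of 0.2 (-0.94).

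Of 52 other complement genes in the files, 25 had at least 200 UMIs in a class, and they mapped to other cells for several steps of the cascade. The recognition genes C1qa, C1qb and C1qc, whose product binds antibody and carries C1r and C1s, were myeloid, at 3246 and 3349, 2506 and 2783, and 2243 and 2216 CPM, and in fibroblast-like cells none passed 8.24 CPM, below the empty droplets. Cfp, which stabilises the alternative convertase, was myeloid too (183 and 170 CPM), as were the anaphylatoxin receptors C3ar1 (373 and 342 CPM) and C5ar1 (214 and 211 CPM) and the complement receptor subunits Itgam, Itgax and Itgb2 (118 to 192 CPM). Cr2, the C3d receptor, was a B cell transcript (189 and 174 CPM). In fibroblast-like cells, which had C1ra, C1s1, C4b and C3, none of these receptor genes passed 1.88 CPM.

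Regulators were split among classes. Cd55, which speeds the decay of convertases, was 374 and 210 CPM in Pi16 cells and 293 and 132 CPM in Adamdec1-led cells. Cd59a, which blocks the membrane attack complex, was 459 and 652 CPM in glia, the class that also had C4b. Clu, which binds the terminal complex, was 1106 and 949 CPM in mesothelial cells and 1208 and 141 CPM in epithelial cells. Cfi, the protease that cleaves C3b, was 98.9 and 2.31 CPM in epithelial cells. The epithelial values rest on 38 and 307 cells, of which 12 and 27 were in a cluster with Clu among its leading genes. In epithelial cells 14.3% of all genes were past 2-fold, and the part of cluster shares in these values was not tested. Vtn, an inhibitor of the terminal complex, was 426 and 243 CPM in smooth muscle cells. Cd93 was 703 and 641 CPM in blood endothelial cells, and Cr1l and C1qbp were broad, at 90.8 and 91.7 and at 62.8 and 60.2 CPM in fibroblast-like cells.

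Some other proteases, recognition genes and a terminal component were also found in fibroblasts. Masp1, of the lectin pathway, was 127 and 128 CPM in subepithelial cells, and Ptx3, a C1q-binding pentraxin, 125 and 121 CPM in Pi16 cells. Colec12, a scavenger receptor with a collectin domain, was 284 and 270 CPM in fibroblast-like cells, and C1rl was 7.63 and 7.93 CPM. C6, which precedes C7 in the membrane attack complex, was 29.5 and 58.8 CPM in the Adamdec1-led subset and 133 and 114 CPM in myeloid cells. It was at or under 1.78 CPM in the Grem1 Ackr4 subset.

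In fibroblast-like cells 17 of the 52 other complement genes had at least 200 UMIs, of which 10 were higher in VApcMinL (30.1% of all genes), 3 were lower (29.6%) and 4 had an interval that held 1. Past 2-fold were 4, where 3.34% of all genes were, namely C1qb, Masp1, Cfd and C6. C1qb, at 3.46 and 7.37 CPM, was below the empty droplets (128 and 139 CPM). Masp1 and C6 were highest among fibroblasts in the subepithelial and Adamdec1-led subsets, which held more of the VApcMinL than of the ApcMin cells. C6 was also higher in VApcMinL within the Adamdec1-led subset. The part of the subset shares in these ratios was not tested. Cfd, factor D of the alternative pathway, had 4554 UMIs in VApcMinL Pi16 cells and 19 in ApcMin ones. In VApcMinL, 10 cells held 100% of them and 421 of the 423 Adipoq UMIs of the subset, and Cfd in the empty droplets was 0.276 and 61.1 CPM. Among those lower, Cd55 was 227 and 121 CPM (log2 -0.91) and Ptx3 54.7 and 35.5 CPM (log2 -0.62).

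**Figure D5:**
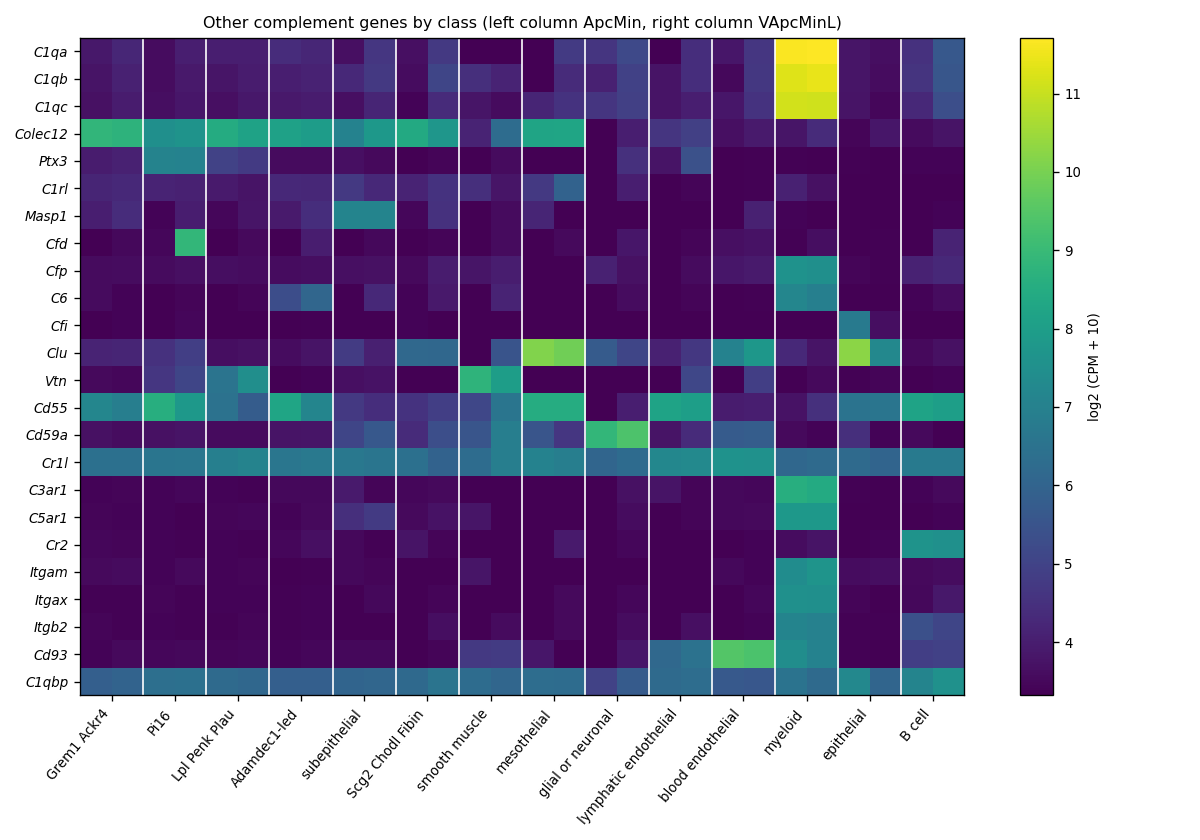
Level of 24 of the 25 other complement genes with at least 200 UMIs in a class, as log2(CPM + 10), by class of cell, with ApcMin in the left and VApcMinL in the right column of each pair. C1qa, C1qb and C1qc were at or above 2216 CPM in myeloid cells, and the Cfd signal in Pi16 cells came from a few VApcMinL cells.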

How the data were processed

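RNA from sorted lamina propria cells of 1 library per genotype was sequenced with the 10x 3′ version 3 kit. The authors deposited UMI counts per gene and barcode, unfiltered, on the GRCm38 (mm10) genome. The submitters' processing notes name Cell Ranger 2.1.1 and Seurat 3.1.1, while the matrix header names release 3.1.0. The values were used as deposited.

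Barcodes with at least 3000 UMIs and at most 20% mitochondrial UMIs were kept (6599 in ApcMin, 6569 in VApcMinL; 75 and 531 were left out for mitochondrial UMIs). Scrublet in scanpy 1.11.5 marked 0 and 1 barcodes by its own threshold, so the top of its scores was taken as doublets, at 0.8% per 1000 barcodes (348 and 345 left out). The libraries were integrated by CCA in Seurat 5.3.0 (R 4.3.3) on 1566 variable genes with the complement genes removed (30 dimensions), and clustered on 20 principal components with 20 neighbours by the Louvain method at resolution 1. A cluster took the name of the marker list with 3 or more genes among its 10 leading genes, or otherwise of the list with the largest gain in detection, and kept it where at least 3 of the markers were found in 25% of its cells. This rule was set after clusters were seen.

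UMIs were summed per class and library (scipy 1.17.1 and pandas 2.3.3 in Python 3.11.15) and given as CPM with exact Poisson intervals, ratios with exact conditional intervals and shares of cells with Clopper-Pearson intervals, at 95%. A count of 0 allows up to 3 counts. Ratios used genes with at least 200 UMIs in both libraries together. For shares of cells, every cell was thinned to 3000 UMIs. No test was run between the genotypes. The scripts were checked on simulated data. Gene positions came from GENCODE vM21, 250-base promoters from RefSeq. Named were the members, the other listed complement genes with at least 200 UMIs in a class, and for each member the 3 genes with the highest Pearson r. Some of these genes are not reported here. The members, the lists and the subset markers were chosen with earlier results of these data known. The alternatives, 9 planned and 3 added after seeing the data, are given at the end.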

Additional observations from a re-analysis of the deposited data

Results flagged for a closer look

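For 7 of the 8 members the VApcMinL to ApcMin ratio lay above 1 in 1 fibroblast subset and below 1 in another, each with a counting interval free of 1. Such intervals were common, lying above 1 for 15.2% to 21.1% of all genes in a subset and below 1 for 19.7% to 27.3%. How many other genes had such a pair of subsets was not counted. The differences between subsets were not tested, since each genotype has 1 library. C3 differed by 1.79 on the log2 scale between the subepithelial subset (0.99) and the Scg2 Chodl Fibin subset (-0.80), but with cells classed singly by their marker UMIs these were -0.17 and 1.76. C7 differed by 1.64 between the subepithelial (0.58) and the Lpl Penk Plau subset (-1.06), and C4b by 1.495 between the Pi16 (1.08) and the Lpl Penk Plau subset (-0.41). For Cfb the difference was 0.85 between the Pi16 (0.31) and the Adamdec1-led subset (-0.54), and for C2 it was 0.83 between the Pi16 (0.58) and the Grem1 Ackr4 subset (-0.25). C1ra differed by 0.55 between the Scg2 Chodl Fibin (0.40) and the Lpl Penk Plau subset (-0.16), and Serping1 by 0.23 between the Pi16 (0.07) and the Scg2 Chodl Fibin subset (-0.16). C1s1 had no such pair of subsets. The subset values depend on how cells were grouped. Those of Pi16 and Lpl Penk Plau depend on where they are divided, and those of the subepithelial and Scg2 Chodl Fibin subsets rest on few cells.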

How the results depend on the processing

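In fibroblast-like cells none of the 8 members passed 2-fold under any alternative run. C4b stayed higher in VApcMinL in all of them, with log2 ratios from 0.48, with equal subset shares, to 0.87. With doublets kept, C3 was 0.086 in fibroblast-like cells and turned from -0.63 to 0.080 in Lpl Penk Plau cells. With at least 6000 UMIs, C3 was 0.092 and Serping1 0.0054. With each cell thinned to 3000 UMIs, C3 was 0.057, C4b 0.87, C2 -0.15, C7 -0.39, Serping1 -0.040 and the median of the members -0.077. As a mean of per-cell values, C3 was 0.029, C2 -0.026, C7 -0.36, Serping1 -0.035 and the median -0.030. With equal subset shares, chosen after seeing the data, C3 was 0.16, C4b 0.48, C1s1 -0.072, C1ra 0.070, C7 -0.12 and Serping1 -0.028. The cause of these shifts was not tested. Leaving out classes under 50 cells in either library was also chosen after seeing the data. With it, 8 members were highest in a fibroblast-like subset in place of 4, since this removes the mesothelial cells. It also removes the glial or neuronal, lymphatic endothelial, epithelial and smooth muscle cells. Of 118 recomputed log2 ratios (the members in fibroblast-like cells, C4b in Pi16 cells, C3 and C7 in Lpl Penk Plau cells), 88 moved by less than their counting interval. In all, 4 crossed 0, namely C3 in Lpl Penk Plau cells and, where the interval had held 1, C2 in 2 settings and Serping1 in 1, as given above. C2 and Cfb had the fewest UMIs of the 8 members in fibroblast-like cells. The subepithelial subset rests on 54 ApcMin and 188 VApcMinL cells, and the Scg2 Chodl Fibin subset on 139 and 113. No paired analysis was possible because the groups hold 1 library each.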
